A study of Rattus norvegicus with 46 samples.

Results

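Unirradiated, vehicle-treated rat skin on day 1 was compared with baseline skin of day -10. The comparison used 8 of the 46 arrays of the series: 2 arrays titled day 1 with DMSO (replicate 1 from rat 319 and replicate 2 from rat 318) and the 6 arrays titled as untreated on day -10, 1 from each of 6 rats. All 23188 features that are not controls were tested, of 24834 on the array. The comparison holds what repeated biopsy, vehicle injection, sham radiation and time do together in skin that was never irradiated. Any difference in the hour of biopsy is part of it too, and these cannot be told apart.

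All animals were Sprague-Dawley rats, and each sample was a 5 mm punch biopsy of abdominal skin. The baseline group had received neither drug nor radiation. The day 1 group had received DMSO on days -7, -5, -3 and 0, the days of sham radiation, and rats 318 and 319 had been biopsied on days -10 and -4 before. Both rats are also in the baseline group, as replicates 6 (rat 318) and 5 (rat 319). Groups used beside these were the same arm on day -4 (2 arrays, rats 319 and 318) and irradiated skin with DMSO on day 1 (3 arrays), which had received 40 Gy of 6 MeV electrons in 4 fractions of 10 Gy. No transgene, deletion or cell line is involved, and the labels used here give the day of a biopsy but neither its hour nor the age or sex of the rats. The labels of day 1 replicate 2 conflict, with day 1 in its title and source and day 3 in its description, and it was taken as day 1.

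Skin is built of an epidermis, whose basal keratinocytes divide and are anchored to the basement membrane by hemidesmosomes, of hair follicles with sebaceous glands, and of a dermis over fat and a thin muscle layer. Nearly every skin cell runs a circadian clock, in which BMAL1 and CLOCK activate E-box genes that include the Per repressors, the REV-ERB receptors Nr1d1 and Nr1d2 and the PAR-domain factors Dbp and Tef. The REV-ERB receptors repress Bmal1 through ROR elements, so that in a running clock Bmal1 and the E-box genes peak at different times of the day.

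Values are log2 signals as the authors deposited them, already normalized between arrays, and differences are given on that scale and not as folds, because its relation to the scanner signal is not stated and it reaches 19.66 to 19.93 at the top of an array. Array medians of the 8 arrays ran from 6.84 to 6.94, and the medians of their negative control features, the level of no signal, from 5.98 to 6.52. Arrays are separate biopsies, and their number (2 against 6) limits the precision. The labels name no batch. When the 46 arrays were split by the signals of a pair of spike-in features, all 8 fell on the same side, called spike-in group I here. Skin markers were present: the basal keratin Krt14 read 15.88 or more in every array. The biopsies differed in their muscle and hair genes. The mean of 23 skeletal muscle fibre genes was 7.63 in the day 1 array of rat 319 and 14.68 in that of rat 318, against 6.10, 15.33 and 16.08 (lowest, median and highest) at baseline, and the lowest of these was replicate 2 (rat 323). The mean of 17 hair shaft and inner root sheath genes was 11.10 and 15.15 on day 1, against 11.71 to 16.36 at baseline, where replicate 4 (rat 321) was lowest. In tissue RNA of this kind, fewer cells of a type and less RNA per cell cannot be told apart.

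Skin of day 1 had higher values than baseline skin for 6 of 16 clock genes, Dbp foremost, and for 4 of 9 basal keratinocyte genes. It had lower values for the clock activator Bmal1, the desaturase Fads2 and the mitotic regulator Foxm1. Of these, Foxm1 was at the negative control level on day 1, and with day 1 set at that level the difference was -0.15. With 1 mean per group fitted to all arrays with limma and Benjamini-Hochberg adjustment over all features, 63 features were higher (0.272% of those tested) and 10 were lower (0.0431%) at an adjusted p under 0.05. Of these 73, 59 carry a gene symbol and 72 had no overlap between both groups, where 11.8% of all features had none. At an unadjusted p under 0.05 there were 3126 features, against 1159 that chance alone would give. This excess was absent without day 1 replicate 1 and remained without day 1 replicate 2. The median difference over all features was 0.05, and 55.6% of them were above 0. That median was 0.005 without day 1 replicate 1 and 0.08 without day 1 replicate 2.

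The array of rat 319 lay farther from the baseline mean than that of rat 318 in 63 of the 73 called features. Without it 7 features were called, and the 5 of them shared with the 73 were Dbp, Per2, Per3, Tef and Bmal1, all clock genes. Without the array of rat 318, 313 were called and 57 of the 73 remained. The baseline arrays weighed on the count as well: it was 21 without replicate 1, 438 without replicate 2, 16 without replicate 3 and 159 without replicate 4, and 21, 73, 16 and 71 of the 73 remained. It was 55 and 52 without replicates 5 and 6, and 51 and 47 remained. With the rat as a fixed block, which compares within rats 318 and 319, 6 of the 73 were called: Dbp, Per2, Per3, Tef, S100a10 and Gng12. The fit of the 2 compared groups alone called 0 features with limma, with 2732 at an unadjusted p under 0.05. In all of these fits the 73 features kept their direction. For the 72 with no overlap between both groups, none of these fits could have changed it. Their kept direction therefore says nothing on how stable they are.

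The smallest adjusted p-values were those of the clock genes Dbp, Per3 and Per2. Of 16 measured clock genes, 6 were higher on day 1, 1 was lower and 9 did not pass, with a median difference of 0.98 against 0.05 over all features. With genes at the negative control level set at the bound defined with Tef, the list's median was 0.60. Dbp (feature TC0100001509.rn.2), a PAR-domain transcription factor that carries clock time to output genes, read 14.66 in rat 319 and 13.30 in rat 318 on day 1, against 8.27, 10.02 and 10.69 (lowest, median and highest) at baseline. Both day 1 arrays lay far above every baseline array. The labels give no hour of biopsy, so its part in the clock values could not be tested. The difference was 4.24 ± 0.46 (SE; limma adjusted p = 1.64e-06).

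Tef (feature TC0700001507.rn.2), its close relative, read 8.62 in rat 319 and 8.71 in rat 318, against 4.66, 5.89 and 7.15 at baseline. Its difference was 2.82 ± 0.39 (SE; adjusted p = 0.000131, limma). The mean of its baseline arrays did not exceed the mean of the negative control medians (6.17). With each baseline array raised to its own negative control median where it was below it, a bound used for all such groups, the difference was at least 2.24. Per3 (feature TC0500004116.rn.2), a period gene, read 10.00 and 8.96 on day 1, against 6.14, 6.74 and 7.45 at baseline. It differed by 2.72 ± 0.32 (SE; adjusted p = 6.64e-06, limma). Its relative Per2 (feature TC0900002464.rn.2), a core repressor of the clock, read 9.78 and 10.00, against 7.07, 7.43 and 8.18. The 2 day 1 arrays were closer to each other than to any baseline array, and the difference was 2.34 ± 0.29 (SE; adjusted p = 1.29e-05, limma).

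Bmal1 (feature TC0100002398.rn.2), the activator of the loop, moved the other way. It read 8.22 in rat 319 and 7.80 in rat 318, against 9.08, 9.54 and 10.17 at baseline, with no overlap. The difference was -1.60 ± 0.25 (SE; adjusted p = 0.00128, limma), and with the rat as a fixed block it was -1.53 with an adjusted p of 0.104. Ciart, which encodes a repressor of the BMAL1 complex, read 7.23 and 6.32 on day 1 against 4.78, 5.27 and 5.49 at baseline, all 6 below the negative control level. By the same bound it rose by at least 0.60 (fitted difference 1.57 ± 0.29 SE, limma adjusted p = 0.00797). Nr1d2, the receptor REV-ERB beta, read 13.26 and 13.05 against 10.04, 11.02 and 12.60, a difference of 2.00 ± 0.46 (SE; adjusted p = 0.0453, limma). Without the day 1 array of rat 319 the adjusted p of both Ciart and Nr1d2 was 0.887, and with the rat as a fixed block it was 0.238 and 0.302.

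Among the clock genes that did not pass, Nr1d1, the receptor REV-ERB alpha, read 14.52 in rat 319 and 13.69 in rat 318, against 9.93, 12.59 and 13.92 at baseline (difference 1.90 ± 0.70 SE, limma adjusted p = 0.211). Baseline arrays themselves were spread over almost 4 units for this gene, and the array of rat 318 lay within that spread. Per1, a period gene that glucocorticoids also induce, read 11.51 and 10.24 against 8.26, 9.67 and 10.20 (difference 1.37 ± 0.42 SE, adjusted p = 0.126, limma).

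**Figure D1:**
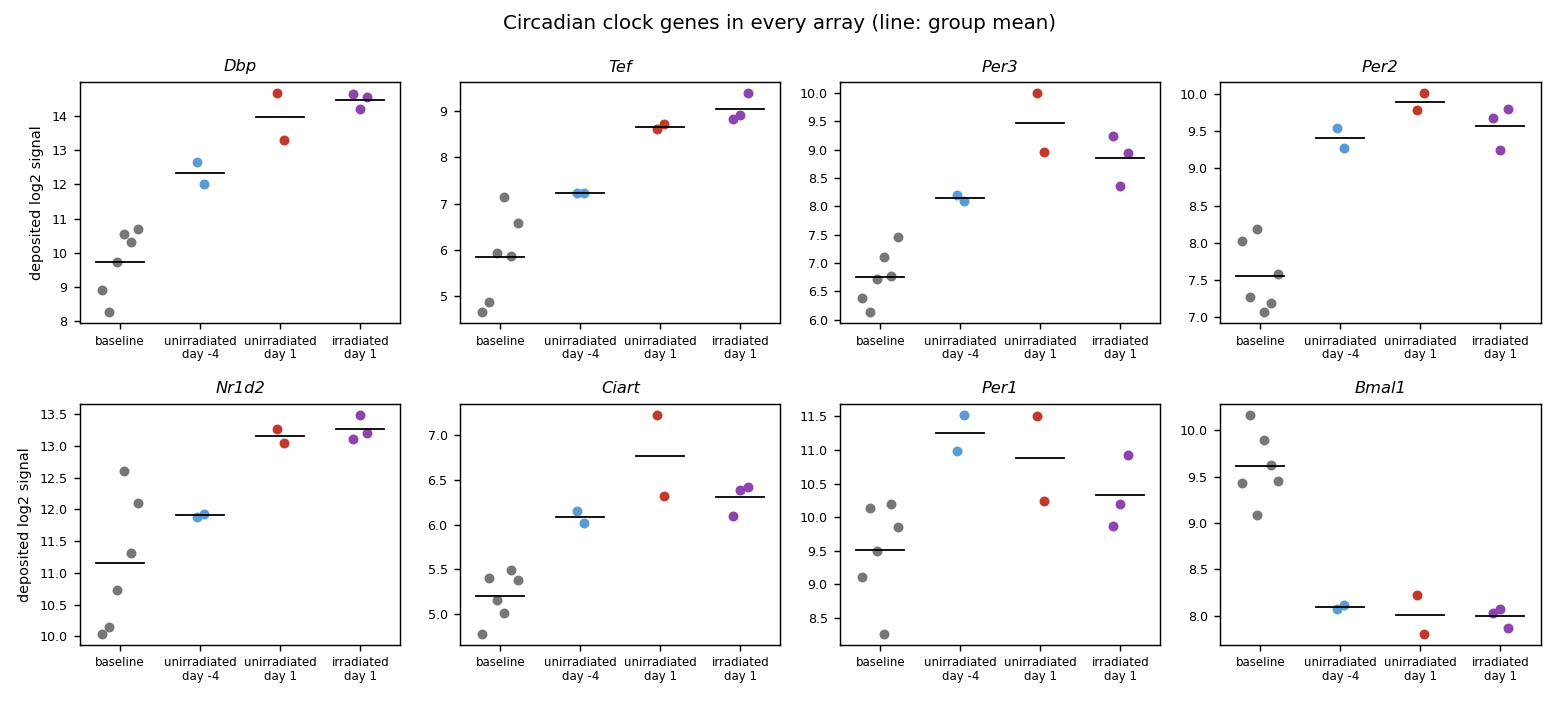
Deposited log2 signal (y axis) of 8 clock genes in every array of 4 groups (x axis): 6 baseline arrays, 2 unirradiated vehicle arrays of day -4, 2 of day 1 and 3 irradiated vehicle arrays of day 1, with points for arrays and lines for group means. Dbp read 13.30 and 14.66 on day 1 against at most 10.69 at baseline, and Bmal1 read at most 8.22 against at least 9.08.

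The bases before the start of 4 of these genes are shown, each of which holds the letters of a known clock element. Of these, Ciart, Tef and Per2 rose and Bmal1 fell. Dbp, Per3 and Nr1d2 also rose but hold no match and are not shown. The windows are the 250 bases before the annotated start in RefSeq's GRCr8 assembly, written 5′ to 3′ on the gene's strand, with the matches in capitals. Ciart lies at chr2:186112247-186112496 (minus strand) and holds the E-box CACGTG 3 times. Tef lies at chr7:115206577-115206826 (plus strand) and holds the E-box once. Per2 lies at chr9:99496994-99497243 (minus strand) and holds the D-box TTATGTAA, the kind of element that DBP and TEF bind. Bmal1 lies at chr1:176766078-176766327 (plus strand) and holds the ROR element TAGGTCA, the kind that REV-ERB receptors bind.
Ciart: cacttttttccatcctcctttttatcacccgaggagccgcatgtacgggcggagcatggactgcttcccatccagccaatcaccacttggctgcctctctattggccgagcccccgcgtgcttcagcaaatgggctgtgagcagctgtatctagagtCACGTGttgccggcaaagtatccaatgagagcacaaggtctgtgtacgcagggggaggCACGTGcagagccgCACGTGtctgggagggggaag
Tef: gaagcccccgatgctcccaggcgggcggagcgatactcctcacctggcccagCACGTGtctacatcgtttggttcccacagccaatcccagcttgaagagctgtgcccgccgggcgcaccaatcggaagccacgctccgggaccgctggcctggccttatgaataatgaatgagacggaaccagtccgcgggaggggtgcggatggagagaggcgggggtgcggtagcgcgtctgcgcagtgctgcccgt
Per2: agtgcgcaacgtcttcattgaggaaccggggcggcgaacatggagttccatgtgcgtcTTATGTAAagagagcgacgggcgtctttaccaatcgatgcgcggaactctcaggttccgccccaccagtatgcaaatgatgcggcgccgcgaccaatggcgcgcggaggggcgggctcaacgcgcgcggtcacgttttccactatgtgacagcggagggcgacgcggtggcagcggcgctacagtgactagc
Bmal1: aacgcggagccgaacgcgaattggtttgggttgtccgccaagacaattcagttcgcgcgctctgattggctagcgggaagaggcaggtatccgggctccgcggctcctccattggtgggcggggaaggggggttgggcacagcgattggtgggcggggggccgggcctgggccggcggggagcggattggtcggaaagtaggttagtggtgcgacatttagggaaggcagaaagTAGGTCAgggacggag

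The 3 motifs do not overlap each other in these windows. In Ciart the E-boxes begin 93, 35 and 21 bases before the start, and in Tef the E-box begins 198 bases before it. The D-box of Per2 begins 192 bases before the start and the ROR element of Bmal1 begins 16 bases before it. Searched on both strands of all 33469 promoter windows of 300 bases (250 before to 50 after the start), CACGTG was in 6.42%, TTATGTAA in 0.893% and TAGGTCA in 2.63%. The windows of Dbp, Per1, Per3 and Nr1d2 hold none of the 3, and 1 E-box was found over the 2 windows of Nr1d1. A match describes these letters only.

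The clock genes were followed in the earlier and irradiated groups, which share arrays with the comparison above, so each is given by its own values. On day -4 Dbp read 12.66 in rat 319 and 12.00 in rat 318, between baseline and day 1. Per2 read 9.54 and 9.27 on that day, and Bmal1 read 8.07 and 8.11. Between day -4 and baseline, 3 features were higher (0.0129% of those tested) and 1 was lower (0.00431%). The 3 with symbols were all clock genes: Dbp (2.59 ± 0.46 SE, limma adjusted p = 0.017), Per2 (1.85 ± 0.29 SE, adjusted p = 0.00505, limma) and Bmal1 (-1.52 ± 0.25 SE, adjusted p = 0.00798, limma). Those 4 calls rest on both day -4 arrays: without rat 319 on that day 1 feature was called, and without rat 318 there were 0, with 1119 at an unadjusted p under 0.05. That count was 93 without baseline replicate 2, and 3 or 4 without any other baseline array. With the rat as a fixed block it was 2. With rats 318 and 319 alone, as pairs, it was 571, of which 526 were lower, in a fit with only 1 residual degree of freedom.

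On day 3 of the unirradiated arm, the day that the conflicting description names, Dbp read 13.003 in rat 319 and 11.14 in rat 318, both above the baseline range. Bmal1 read 8.91 and 9.14 on that day, the first below its baseline range and the second within it. On later days, where the second array is of another rat, Dbp read 11.84 and 12.27 (day 7) and 10.13 and 10.99 (day 14). Of these, only the 10.13 lay within the baseline range. Bmal1 read 9.52 and 9.45 on day 7 and 8.96 and 9.44 on day 14, with 3 of the 4 values within its baseline range. By their spike-in signals, all unirradiated arrays of days 3, 7 and 14 fell in another group, III. The baseline arrays and those of this arm on days -4 and 1 were all in group I. For these later days, spike-in group and day cannot be told apart. In irradiated vehicle skin of day 1, Dbp read 14.63, 14.21 and 14.56, and in irradiated skin with RTA-408 it read 14.64, 14.49 and 14.40. None of the 16 clock genes passed between irradiated and unirradiated vehicle skin on day 1. For Dbp that difference was 0.48, with a 95% interval of -0.55 to 1.52, and for Bmal1 it was -0.02 with an interval of -0.59 to 0.55. For Per2 it was -0.32 (-0.98 to 0.33).

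Of 17 measured glucocorticoid-responsive genes, 2 were higher on day 1, none was lower and 15 did not pass, with a median of 0.52. Fkbp5, a co-chaperone that dampens the glucocorticoid receptor, read 11.52 in rat 319 and 9.68 in rat 318, against 8.03, 8.32 and 9.47 at baseline (2.06 ± 0.42 SE, limma adjusted p = 0.0217). Nfkbia, which encodes the NF-kB inhibitor, read 14.16 and 12.83 against 11.08, 11.56 and 12.28 (1.93 ± 0.43 SE, adjusted p = 0.0328, limma). Both were highest in rat 319 and had no overlap with baseline. Tsc22d3, the glucocorticoid-induced leucine zipper, read 11.02 and 10.38 against 8.43, 9.16 and 9.73 and did not pass (1.50 ± 0.38 SE, adjusted p = 0.0592, limma). Without the day 1 array of rat 319 the adjusted p of Fkbp5 and Nfkbia was 1, and with the rat as a fixed block it was 0.274 and 0.207.

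Genes of the basal epidermis and its anchorage were among those higher on day 1. Of 9 measured basal keratinocyte genes, 4 rose and 5 did not pass (median 1.09). Krt14, the type I keratin of basal cells, read 18.18 in rat 319 and 17.75 in rat 318, against 15.88, 16.59 and 17.34 at baseline (1.36 ± 0.28 SE, limma adjusted p = 0.0224). Itgb4, the beta chain of the hemidesmosome integrin, read 13.92 and 13.08 against 11.43, 11.77 and 12.58 (1.61 ± 0.32 SE, adjusted p = 0.0191, limma). Its partner Itga6 read 14.98 and 14.26 against 13.27, 13.52 and 13.87 (1.09 ± 0.23 SE, adjusted p = 0.0328, limma). Lamb3, a chain of the laminin to which that integrin binds, read 11.67 and 10.49 against 7.99, 9.44 and 9.81 (1.90 ± 0.42 SE, adjusted p = 0.0328, limma). All 4 had no overlap between the groups. Arrays with little muscle RNA moved with them: baseline replicate 2 (muscle mean 6.10) was the highest baseline array for each of the 4, and rat 319 (7.63) was the higher day 1 array, and the part of muscle content in these differences was not tested. With the rat as a fixed block their adjusted p ran from 0.129 to 0.223, and without the day 1 array of rat 319 from 0.887 to 1.

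Outside that list, Perp, a desmosome protein and p53 target, read 19.40 and 19.21 against 18.06, 18.28 and 18.92 (0.97 ± 0.19 SE, limma adjusted p = 0.0191). The highest baseline array was replicate 2 for Perp and P3h2 too. P3h2, which hydroxylates basement membrane collagen, read 12.60 and 11.83 against 9.61, 10.46 and 11.11 (1.84 ± 0.38 SE, adjusted p = 0.0224, limma). Anxa2, Anxa7, Anxa8 and S100a10, the partner of annexin A2, rose by 1.08, 1.06, 1.33 and 1.03 (limma adjusted p from 0.0263 to 0.0496). They were chosen after their values were seen. Without the array of rat 319 no gene of this paragraph passed (adjusted p from 0.736 to 1), and with the rat as a fixed block S100a10 did (adjusted p = 0.0256, limma).

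Genes of the upper epidermis were higher in the mean without passing. Of 7 differentiated keratinocyte genes none passed and 6 were above 0 (median 1.16). Spink5, an inhibitor of the proteases that shed skin, read 17.74 in rat 319 and 16.47 in rat 318, against 14.66, 15.81 and 16.79 at baseline (1.44 ± 0.39 SE, limma adjusted p = 0.0815). Rat 318 lay within the baseline range for it, and so did it for Sbsn (16.45 against a highest baseline value of 16.65). All 17 genes of the ceramide and lipid barrier were above 0 (median 1.43) and none passed. Degs1, which makes ceramides, came closest (1.42 ± 0.36 SE, adjusted p = 0.0622, limma), and Alox12b, the skin lipoxygenase, showed 2.33 ± 0.70 (SE; adjusted p = 0.122). The mean of the 17 was 12.65 in rat 319 and 11.49 in rat 318, against 10.12, 10.79 and 11.85 at baseline. The highest baseline array was replicate 2, the array with the lowest muscle mean. Without rat 319 on day 1 the median fell to 0.79. The part of the low muscle content of both arrays in these values was not tested.

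**Figure D2:**
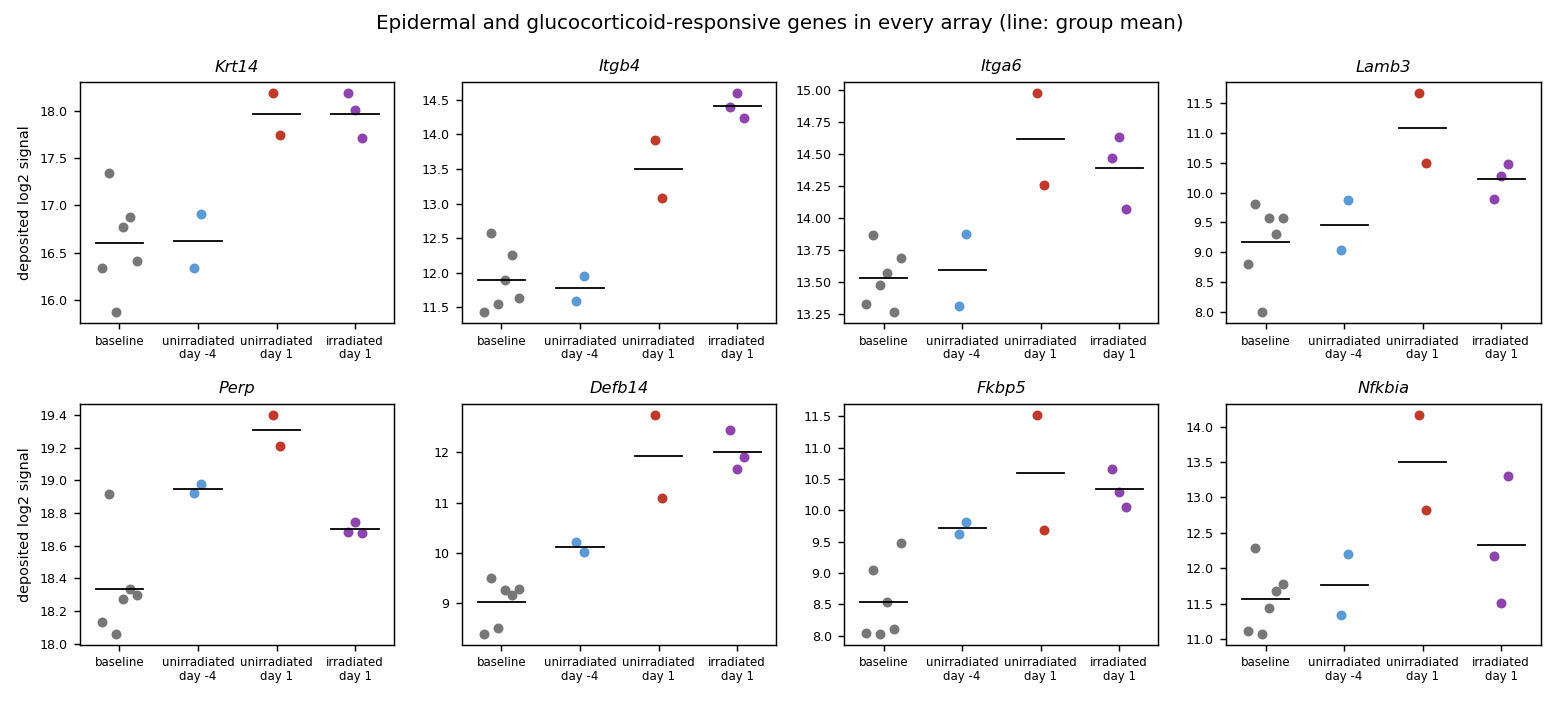
Deposited log2 signal (y axis) of 6 epidermal and 2 glucocorticoid-responsive genes in every array of the 4 groups (x axis), with points for arrays and lines for group means. Krt14 read 18.18 and 17.75 on day 1 against at most 17.34 at baseline, and the point of rat 319 was the higher of both day 1 points in each panel.

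Other genes that rose have diverse roles. Defb14, an antimicrobial beta-defensin, read 12.75 in rat 319 and 11.10 in rat 318, against 8.38, 9.21 and 9.51 at baseline (2.91 ± 0.64 SE, limma adjusted p = 0.0328). Cxcl16, a membrane-bound chemokine, read 13.50 and 12.57 against 10.61, 11.45 and 12.02 (1.68 ± 0.38 SE, adjusted p = 0.0395, limma). Nrg4, a ligand of the ErbB4 receptor, read 10.25 and 8.76 against 6.89, 7.29 and 8.48 (2.05 ± 0.45 SE, adjusted p = 0.0328, limma). None of the 3 overlapped with baseline, although rat 318 exceeded the highest baseline array by little for Nrg4. Tnfrsf18, a co-stimulatory receptor of the tumour necrosis factor family, rose by 1.78 and Adcy1, an adenylyl cyclase, by 2.04 (adjusted p of 0.0104 and 0.00342, limma). Adcy1 read 9.99 and 9.59 against 7.36, 7.65 and 8.22.

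Ahr, the aryl hydrocarbon receptor and a sensor of foreign compounds, read 11.84 and 9.91 against 8.00, 9.12 and 9.65 (1.91 ± 0.45 SE, limma adjusted p = 0.0496). Ephx1, a detoxifying epoxide hydrolase, read 10.90 and 10.62 against 8.18, 8.89 and 9.64 (1.86 ± 0.40 SE, adjusted p = 0.0323, limma). Nfe2l2, which encodes NRF2 and was chosen after its values were seen, read 11.89 and 11.68 against 10.57, 10.88 and 11.23 (0.89 ± 0.21 SE, adjusted p = 0.0496, limma). None of the 31 measured genes of the NRF2 target list, which does not hold Ephx1, passed (median 0.22). Nqo1, the best-known of them, read 10.70 and 8.73 against 6.02, 7.30 and 8.02 (2.46 ± 0.60 SE, adjusted p = 0.0565, limma). Hmox1 read 9.85 and 10.36 and lay within its baseline range of 8.95 to 10.83.

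Further genes that rose were Hk1, a hexokinase (1.48), Kcnip3, a calcium-binding transcriptional repressor (1.89), and Fhl5, a LIM protein (1.88). Cwh43 (1.85), Ggta1, a glycosyltransferase (1.81), and Nrn1, a neurite growth factor, rose too. Nrn1 was at the negative control level at baseline, and its bounded difference was 0.43. It read 7.48 in rat 319 and 5.72 in rat 318 on day 1. The 5.72 lay below the negative control median of its own array (6.17), so the bound rests on rat 319. For the 14 genes of this and the last 2 paragraphs that rose, the adjusted p was 0.061 to 0.289 with the rat as a fixed block. Without the day 1 array of rat 319 it was 0.378 to 1.

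No gene of the inflammatory cytokine list or of the wound keratinocyte list passed. Cxcl16, Defb14 and Nfkbia, which passed as given above, are in neither list. None of 23 measured inflammatory cytokines and chemokines was called, though 20 were above 0 (median 0.32), and 13 of the 23 were at the negative control level in both groups. Il1a, an alarmin of keratinocytes, read 12.49 in rat 319 and 10.33 in rat 318, against 8.00, 9.29 and 10.30 at baseline (2.24 ± 0.55 SE, limma adjusted p = 0.0573). Il1b (5.51 and 4.40) and Il6 (5.08 and 4.72) were at the level of the negative controls in both groups. Of 13 wound and stress keratinocyte genes none was called (median 0.75), and Serpinb2, a serpin of activated epidermis, was closest (15.03 and 13.19 against 10.84, 12.22 and 12.77, adjusted p = 0.088, limma).

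Among the 10 lower features, Fads2 had the largest difference. Fads2, the delta-6 desaturase of long-chain fatty acids that sebaceous glands express strongly, read 6.66 in rat 319 and 9.19 in rat 318, against 9.66, 11.80 and 13.34 at baseline. Both day 1 arrays lay below every baseline array, and the difference was -3.80 ± 0.77 (SE; limma adjusted p = 0.0217). Low hair gene means moved with it: its lowest baseline array was replicate 4, the one with the lowest hair mean (11.71), rat 319 was the lower day 1 array for both, and on day 7 Fads2 read 8.92 and 7.70 where the hair means were 7.52 and 5.61. The part of hair content in the difference was not tested. Its neighbour in the pathway, Fads1, read 10.54 and 10.16 against 11.28, 11.75 and 14.02 and did not pass (-1.80 ± 0.49 SE, adjusted p = 0.0865, limma). Fads2 was the 1 called gene of the 20 measured in sterol and fatty acid synthesis and of the 16 in the sebaceous gland list. The sebaceous gland list otherwise lay higher on day 1, with 14 of 16 genes above 0 and a median of 1.24, which was 0.34 without rat 319.

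Of 22 measured genes of mitosis and cell division 1 fell and 21 did not pass. All 22 were below 0 (median -1.47, and -1.32 with genes at the negative control level set at their bound), where 10293 of the 23188 features were. Their mean was 7.73 in rat 319 and 7.68 in rat 318 on day 1, against 8.33, 9.33 and 9.56 at baseline and 9.47 and 9.78 in the same rats on day -4. The 2 day 1 arrays did not overlap with baseline, where rat 319 (8.33) and replicate 4 (8.44) were lowest. Replicate 4 also had the lowest hair mean at baseline (11.71), whereas the baseline array of rat 319 had a hair mean of 16.12. On day 1 the lower mitosis mean was that of rat 318, which had the higher hair mean (15.15). The part of hair content in the mitosis values was not tested. Foxm1, the transcription factor that drives many mitotic genes, read 5.59 and 4.80 on day 1 against 5.75, 6.51 and 7.15 (-1.30 ± 0.30 SE, limma adjusted p = 0.045). On day 1 its mean did not exceed the negative control level, and by the bound it was at least 0.15 lower (bounded difference -0.15). Cdc20, an activator of the anaphase-promoting complex (at the negative control level on day 1, bounded difference -1.11, adjusted p = 0.0636, limma), Kif11, a spindle motor (-1.50 ± 0.42 SE, adjusted p = 0.0984, limma), and Ccnb2, a mitotic cyclin (-1.95 ± 0.58 SE, adjusted p = 0.116, limma), did not pass. Without the one or the other day 1 array Foxm1 did not pass (adjusted p = 0.202 without rat 319 and 0.218 without rat 318), and the median of the list was -1.49 and -1.53.

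None of 18 measured hair matrix and follicle signalling genes passed, with 7 above 0, 11 below 0 and a median of -0.39. Lef1, a Wnt effector of the hair matrix, read 6.96 in rat 319 and 9.98 in rat 318, against 7.96, 11.83 and 12.48 at baseline (adjusted p = 0.291, limma). Shh, which growing follicles secrete, was at 4.03 in both day 1 arrays, against 4.35, 6.04 and 7.56 at baseline, where its mean was at the negative control level too. Of the 17 hair shaft genes none passed and all were below 0 (median -2.32). That median was 0.01 without the day 1 array of rat 319 and -4.16 without that of rat 318, so the direction rested on rat 319. Krt82, a hair cuticle keratin, shows it: 7.28 and 12.48 on day 1 against 7.55, 14.28 and 15.08 at baseline, where replicate 4 was lowest.

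The 23 skeletal muscle fibre genes were all below 0 (median -3.11) and none passed, and without the day 1 array of rat 319 the median was 0.95, with 19 of 23 above 0. Casq1, the calcium store protein of muscle, read 6.66 in rat 319 and 15.81 in rat 318, against 6.00, 17.33 and 18.62. Rat 319 on day 1 and baseline replicate 2 stood apart from the other 6 arrays. Lower genes that muscle expresses strongly were Hacd1, a fatty acid elongation enzyme (7.67 and 9.86 against 9.26, 12.47 and 14.33, -3.51 ± 0.77 SE, limma adjusted p = 0.0328), and Parvb, a focal adhesion protein (7.22 and 8.90 against 9.40, 10.41 and 10.90, -2.22 ± 0.48 SE, adjusted p = 0.0328, limma). Hacd1 was the called gene whose arrays overlapped. The part of the muscle content in both was not tested.

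Of 23 oxidative phosphorylation genes, all were below 0 (median -0.74) and none passed. That median was -0.35 without rat 319 on day 1. Outside the list 2 subunits passed: Ndufb9 of complex I (12.20 and 13.01 against 13.19, 13.90 and 14.04, -1.17 ± 0.26 SE, limma adjusted p = 0.0388) and Atp5mg of the ATP synthase (9.97 and 9.97 against 10.60, 10.82 and 11.06, -0.85 ± 0.17 SE, adjusted p = 0.0213, limma). The muscle means of the day 1 arrays were 7.63 and 14.68, and their part in these values was not tested. Nup210, a nuclear pore glycoprotein at the negative control level on day 1, had a bounded difference of -0.78 (fitted -2.08 ± 0.47 SE, adjusted p = 0.0395, limma). Without rat 319 none of Fads2, Hacd1, Parvb, Nup210, Ndufb9 and Atp5mg passed (adjusted p from 0.532 to 1), and with the rat as a fixed block their adjusted p ran from 0.129 to 0.282.

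**Figure D3:**
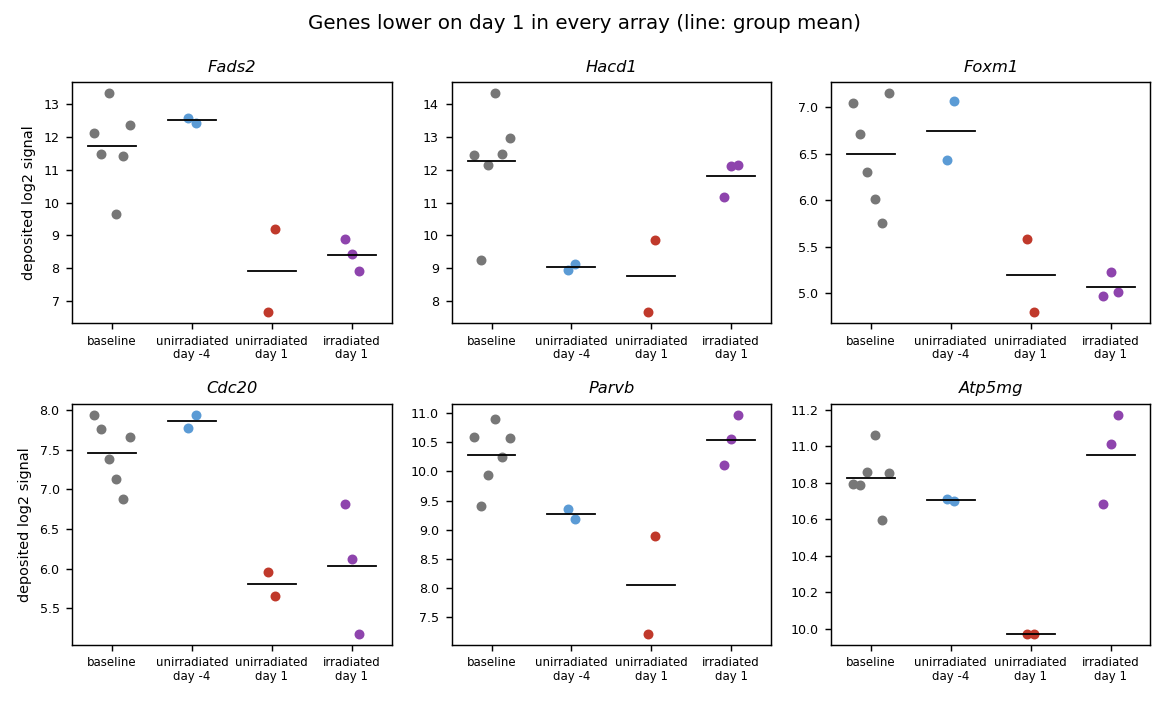
Deposited log2 signal (y axis) of 6 genes with lower means on day 1 in every array of the 4 groups (x axis), with points for arrays and lines for group means. Fads2 read 6.66 and 9.19 on day 1 against at least 9.66 at baseline, and Cdc20 is shown without having passed.

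**Figure D4:**
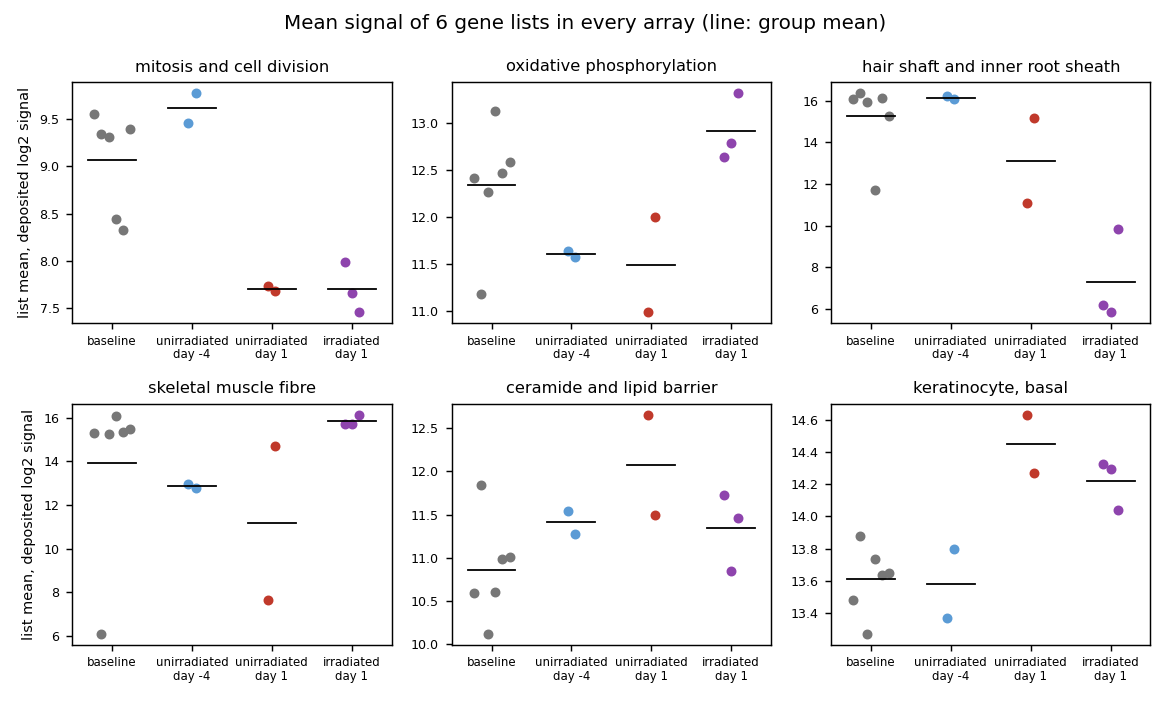
Mean log2 signal (y axis) of 6 gene lists in every array of the 4 groups (x axis), with points for arrays and lines for group means. The mitosis mean was 7.73 and 7.68 on day 1, whereas the hair and muscle means of the day 1 arrays lay far apart (11.10 and 15.15, 7.63 and 14.68).

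The same rats were compared between day 1 and day -4, when they had already received vehicle and been biopsied once. Here 3 features were higher on day 1 (0.0129% of those tested) and 4 were lower (0.0173%). Myh11, the myosin of smooth muscle, read 13.89 in rat 319 and 12.48 in rat 318 on day 1, and 9.55 and 9.02 on day -4 (3.90 ± 0.69 SE, limma adjusted p = 0.0328). Its baseline values ran from 10.15 to 12.05, so day -4 was low and day 1 high against them. Hk1 was higher by 1.61. Rasgrf2, a Ras exchange factor, was at the negative control level on day -4 (4.67 and 4.71). It read 7.66 and 6.11 on day 1, with a bounded difference of 0.56. The 6.11 of rat 318 lay below the negative control median of its own array (6.17), so that bound rests on rat 319. The lower genes were Tfrc, the transferrin receptor that dividing cells need for iron (-2.40 ± 0.47 SE, adjusted p = 0.0444, limma), the histone gene H4c14 (-2.40 ± 0.42 SE, adjusted p = 0.0328, limma), the lipid phosphatase relative Mtmr10 (-2.84) and the glycogen phosphorylase Pygb (-1.77). Tfrc read 11.94 and 12.13 on day 1, 14.64 and 14.24 on day -4 and 12.77 to 14.34 at baseline. H4c14 read 11.50 and 11.04, 13.78 and 13.55, and 11.98 to 12.93.

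These 7 calls were few and depended on the arrays. With the rat as a fixed block, 26 features were called and the 7 were among them. Without the one or the other array of day -4, 0 were called with limma (1846 and 1863 at an unadjusted p under 0.05). Without rat 319 on day 1 there were 5 and without rat 318 there were 25, and 0 and 3 of the 7 remained.

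**Figure D5:**
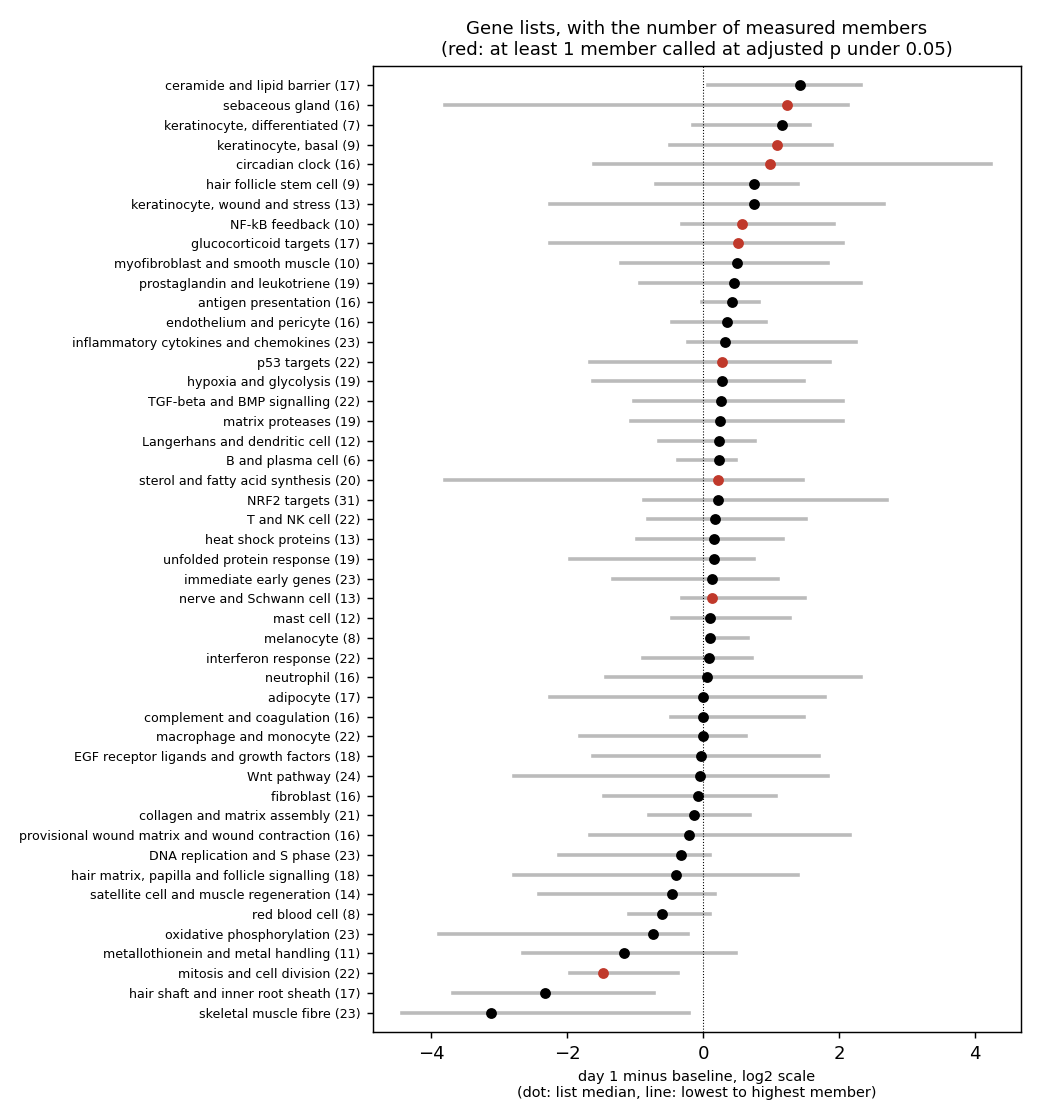
Difference between day 1 and baseline on the log2 scale (x axis) for 48 gene lists (y axis, with the number of measured members), with dots for list medians, lines from the lowest to the highest member and red for lists with at least 1 called member. The ceramide list has the highest median (1.43) and the skeletal muscle list the lowest (-3.11), and neither has a called member.

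Irradiated vehicle skin was set against unirradiated vehicle skin of the same day to see which values on day 1 differ with radiation. There 279 features were higher in irradiated skin (1.20% of those tested) and 209 were lower (0.901%). The 488 calls were 214, 176 and 195 without irradiated replicates 1, 2 and 3, 125 without rat 319 and 396 without rat 318, and 15 with the rat as a fixed block. Targets of p53 were higher in the irradiated arrays. Mdm2, the p53 inhibitor and target, read 13.60, 13.93 and 12.74 there, and 10.80 and 11.12 in unirradiated skin of day 1, which lay within its baseline range of 10.38 to 11.21 (2.47 ± 0.32 SE between irradiated and unirradiated skin, limma adjusted p = 2.06e-05). Cdkn1a, the p53-induced cell cycle inhibitor, read 15.40, 15.15 and 14.62 against 11.61 and 13.26 (2.62 ± 0.49 SE, adjusted p = 0.0043, limma). Abcb1b, a drug efflux pump, read 14.26, 14.26 and 13.41 against 6.81 and 7.29, a difference of 6.92 ± 0.44 (SE; adjusted p = 1.07e-12, limma). Of 22 p53 targets, 9 were higher in irradiated skin, and 2 (Perp and Ephx1) were higher on day 1 than at baseline in unirradiated skin.

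Genes named above had different values under radiation in a few cases. Ephx1 was higher still in irradiated skin (13.81, 13.33 and 13.26, a difference of 2.71 ± 0.45 SE, limma adjusted p = 0.000979). Nrg4 was lower there (7.81, 7.41 and 7.72, -1.86 ± 0.51 SE, adjusted p = 0.0443, limma). Parvb, Ndufb9 and Atp5mg were higher in irradiated skin by 2.48, 1.29 and 0.98, and the irradiated arrays had skeletal muscle means of 15.69, 15.73 and 16.12, whose part in this was not tested. Krt14 did not pass (0.00, with a 95% interval of -0.64 to 0.65), and read 18.18, 18.01 and 17.71 in irradiated skin. Foxm1 read 4.97, 5.23 and 5.01 there and was at the negative control level in both groups, so no difference is given. The mitosis mean was 7.98, 7.66 and 7.46 in irradiated skin, beside 7.73 and 7.68 in unirradiated skin. Fads2 read 8.89, 8.42 and 7.91 (0.48, interval -1.28 to 2.25). These intervals leave room for differences of up to 2.25 for Fads2.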

How the data were processed

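Single-colour Clariom S arrays of rat skin were used, with RNA (100 ng, mean RIN 7.15) labelled as biotin cDNA per the labels' protocols. The authors deposited 1 log2 signal per feature and array, already normalized by a method that stays not given in the sources used here. Values were used as deposited. Raw scans were not analysed here. The array holds 24834 features, of which 1646 are controls and stayed out of the tests, and 15049 of the others had 1 gene symbol in the platform annotation. The test was limma's (version 3.58.1, R 4.3.3), with 1 mean for each of 16 groups of the 46 arrays (30 residual degrees of freedom), and p was adjusted by Benjamini-Hochberg, with calls at 0.05. SE is that of the model. The fit was tested on simulated data in which the noise was independent between features. Biopsies that differ in muscle or hair content were not simulated, so that test says nothing on them. Where the mean of a group did not exceed that of its arrays' negative control medians, a bound is given, with each array of it raised to its own such median.

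Members, the 48 gene lists (806 of 942 entries measured), comparisons and alternatives were chosen with earlier results of these data known. Eligible for naming were called genes with non-overlapping arrays (the 20 highest and 20 lowest, filled up to 10 by smallest p), up to 4 members of each list by smallest p with any called ones, and a fixed panel. The brightest feature stood for a gene. Alternatives were other scaling, filters, array weights, blocks, groups of arrays told apart by spike-in signals and left-out arrays. Replicate numbers pair day 1 with day -4 (same rats) but not with baseline, where rats 318 and 319 are replicates 6 and 5. Deviations from group means correlated at -0.30 for rat 319 and 0.15 for rat 318 between baseline and day 1.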

Additional observations from a re-analysis of the deposited data

Results flagged for a closer look

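In the 6 baseline arrays, 1 array stood far from the other 5 for 10 of 94 genes and lists examined. The genes were named after their values were seen and some belong to the lists, so this count cannot be set against chance. The gap to the nearest array, as a share of the group's range, exceeds Dixon's critical value in each. Baseline replicate 2 (rat 323) was the distant array for the skeletal muscle list mean (0.918), Tnnc2 (0.908), Casq1 (0.871) and Perp (0.681). Baseline replicate 4 (rat 321) was it for Krt82 (0.86), the hair shaft list mean (0.767), Lef1 (0.75), Krt28 (0.717), the sterol and fatty acid synthesis list mean (0.664) and Rasgrf2 (0.634).

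For 9 named genes, irradiated and unirradiated vehicle skin differed on day 1 (limma). The arms are different rats, so these are differences between day 1 values and not between changes within rats. With the rat as a fixed block, 15 features were called in place of 488. Muscle means were 15.69, 15.73 and 16.12 in irradiated skin and 7.63 and 14.68 in unirradiated skin, and their part in these differences was not tested. The differences were 6.92 for Abcb1b, 2.71 for Ephx1, 2.62 for Cdkn1a, 2.48 for Parvb, 2.47 for Mdm2, 1.55 for Cyc1, 1.29 for Ndufb9, 0.98 for Atp5mg and -1.86 for Nrg4.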

How the results depend on the processing

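The 73 calls between day 1 and baseline were 94 after quantile normalization, 73 when rats were a random block and 96 with a replicate block, which kept 46 of the 73, although the replicate numbers name different rats there. They were 139 without the dimmest features, 221 with array weights, 114 when blocked by spike-in group, 10 within spike-in group I, 6 with the rat as a fixed block, 0 with the compared groups alone and 0 with rats 318 and 319 as pairs (2142 at an unadjusted p under 0.05). Leaving out an array gave 7 to 438. With day 1 replicate 2 counted as day 3, an alternative added after the data were seen, 348 were called and 59 of the 73 remained.

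The 7 calls between day 1 and day -4 were 304 with array weights, 26 blocked by rat and 25 with a replicate block (the same rats), 1 blocked by spike-in group, 0 within spike-in group I (3169 at an unadjusted p under 0.05), 0 with the groups alone (3015) and 40 with replicate 2 moved, and 0 to 25 without an array. The 4 between day -4 and baseline were 238 with array weights, 2 with the rat as a block, 3 with a replicate block, 2 within spike-in group I, 0 with the groups alone (1855), 571 with both rats as pairs, which leaves 1 residual degree of freedom, and 0 to 93 without an array. The 488 between irradiated and unirradiated skin were 966 with array weights, 15 with the rat as a block, 421 with a replicate block, 220 with the groups alone, 79 within spike-in group I and 125 to 396 without an array.

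Of 1501 values of named genes under alternatives, 1137 kept their side of the threshold, 299 fell short of it and 65 passed anew. Among values that passed in the main fit or the alternative, 0 reversed their direction. Genes that did not pass could change sign. Casq1, Tnnc2, Cdkn1a and Il1b did so without day 1 replicate 1, where Casq1 was at 0.15 and Tnnc2 at 0.78. Of 180 list medians, 4 changed sign. With 2 arrays on day 1, dim genes are limited by the negative control level.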

Other observations

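Milk protein genes, which were chosen after their values were seen, were high in some biopsies and near the negative control level in others. Csn1s1, an alpha casein, read 18.94 in baseline replicate 3 (rat 322) and 18.63 in baseline replicate 6 (rat 318), and 3.99 to 8.02 in the other 4 baseline arrays. It read 4.93 and 4.13 on day 1, 18.23 in rat 319 and 4.25 in rat 318 on day -4, and 17.76 and 3.66 on day 3. The same arrays were high for Csn3, the kappa casein (18.87 and 18.06 at baseline, 5.20 and 4.51 on day 1, 15.81 in rat 319 on day -4), for Lalba, alpha-lactalbumin (16.26 and 14.35 at baseline, 5.48 and 4.81 on day 1), and for Olah, a fatty acid synthesis thioesterase of the mammary gland (15.83 and 13.36 at baseline, 4.55 and 4.01 on day 1). On day 1 both caseins were at the negative control level, so the differences from baseline are bounds (-3.47 for Csn1s1 and -3.28 for Csn3), and neither passed (limma adjusted p = 0.605 and 0.493), and no marker list of mammary tissue was among those used.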
